A study of Mus musculus with 32 samples.

Results

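Interferon-stimulated genes are transcribed when a cell senses interferon, and 40 of them were followed here among 55289 named genes in mice deficient in Ftsj1. The 40 were taken by symbol from a list, and each had a row in all 5 organ tables. The list holds the ISG15 conjugation system, interferon transcription factors, sensors of foreign nucleic acid, antiviral effectors (IFIT, OAS, Mx and guanylate-binding proteins, viperin) and other induced genes. The rule uses symbols alone, but the list was chosen with earlier results of these data known.

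Degradome sequencing reads short tags from the 5′ ends of polyadenylated RNA that carries no cap. A value is therefore a number of uncapped ends and not a level of intact mRNA. Mice labelled Ftsj1_DF, deficient in a methyltransferase that modifies tRNA, were compared with mice labelled WT. All were male, 4 months old, untreated and fed ad libitum, and no other allele or agent was named. Brain, heart, kidney and liver came from the same 6 mice, with 3 Ftsj1_DF and 3 WT libraries per organ, and spleen from 8 other mice, with 4 libraries of each genotype. The mice form 5 sets of brothers. How the deficiency was made was not given in the sources used here.

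Type I interferon binds the receptor IFNAR1-IFNAR2, whose kinases JAK1 and TYK2 phosphorylate transcription factors. A complex that holds STAT2 and IRF9 then binds the interferon-stimulated response element in promoters of the induced genes. USP18, itself induced, removes ISG15 from proteins and, bound to IFNAR2, dampens the receptor.

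The response element is shown first because it is what promoters of such genes are known to share. Its core was searched as GAAANNGAAA on both strands, with overlapping matches allowed, in RefSeq promoters of build GRCm38.p6 that run from 250 bases before the transcription start to 50 after it. Promoters were held for 29 of the 40 genes, and 17 of these 29 genes (58.6%) carried the core, against 1079 of 27025 genes in the promoter table (3.99%). Among other interferon-induced genes outside the list, 35 of 81 carried it (43.2%). Usp18, Ifi27l2a, Ifi27, Oas2, Mx1, Mx2, Dhx58, Parp9, Parp14, Rtp4 and Zbp1 had no entry. Isg15 is printed whole up to its start because it is the called gene with a promoter entry, at chr4:156200819-156201068 on the minus strand. Capitals mark the core, in every sequence 5′ to 3′ on the strand of the gene, so that a core on the opposite strand reads as TTTC repeats.
Isg15: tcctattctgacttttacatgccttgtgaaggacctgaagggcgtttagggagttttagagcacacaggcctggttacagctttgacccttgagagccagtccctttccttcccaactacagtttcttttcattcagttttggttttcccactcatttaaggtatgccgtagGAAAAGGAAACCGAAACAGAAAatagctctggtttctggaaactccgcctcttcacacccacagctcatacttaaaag
Isg15 held 3 overlapping cores, whose first bases lay 78, 72 and 66 bases before the start. The 26 matches in the promoters of the list fell on the same strand as the gene in 13 cases and on the opposite strand in 13, and 21 of them began before the start.

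Windows around the core show how the effector families differ and where they repeat each other. They lie at chr19:34640770-34640828 (Ifit1), chr19:34583358-34583431 (Ifit3) and chr19:34607754-34607827 (Ifit3b), all on the plus strand. Those of Gbp2 and Gbp3 lie at chr3:142620589-142620628 and chr3:142559984-142560029, also on the plus strand, and those of Bst2 and Rsad2 at chr8:71537572-71537617 and chr12:26456548-26456587 on the minus strand.
Ifit1: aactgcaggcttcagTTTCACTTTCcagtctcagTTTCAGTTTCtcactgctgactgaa
Ifit3: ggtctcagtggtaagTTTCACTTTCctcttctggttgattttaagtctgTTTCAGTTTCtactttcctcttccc
Ifit3b: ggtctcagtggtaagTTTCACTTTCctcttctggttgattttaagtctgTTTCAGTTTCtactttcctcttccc
Gbp2: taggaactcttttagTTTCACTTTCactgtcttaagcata
Gbp3: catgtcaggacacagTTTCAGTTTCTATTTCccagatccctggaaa
Bst2: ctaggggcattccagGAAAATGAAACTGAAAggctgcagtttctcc
Rsad2: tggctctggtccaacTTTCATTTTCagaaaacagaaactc
The windows of Ifit3 and Ifit3b were identical over 74 bases, and their whole promoters matched at 259 of 340 aligned positions, gaps included (76.2%). The promoters start at different points of the shared sequence, with the first core 156 bases before the start in Ifit3 and 188 in Ifit3b. That offset adds gaps, so the percentage understates how alike the paired bases are. These genes are close copies, and reads could be split between them in counting, so their separate values are uncertain.

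The organ names of 2 tables went against their markers. Hepatocyte transcripts made up 27.3% of the summed means of the table named for brain, and neuronal transcripts made up 0.868% of the table named for liver and 0.00477% of the brain-named one. Pancreatic acinar transcripts made up 15.3% of the spleen table. The heart table held cardiomyocyte transcripts (10.6%) and the kidney table proximal tubule transcripts (1.24%). The first 2 tables are called brain-named and liver-named throughout. The direction of fold changes was read from Ftsj1 itself, which was negative in all 5 of the authors' deposited tables, from -3.38 ± 0.59 (liver-named) to -1.56 ± 0.61 (kidney), where ± is the standard error. Its DESeq2 adjusted p was 0.594 (heart) and 0.202 (kidney) in the authors' deposited tables, and it passed in the other 3.

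Across the list, 1 gene rose in each of 3 tables, Ifi27l2a in the brain-named, Isg15 in the heart and Usp18 in the kidney table, and no gene of the list fell in any. The test was the authors' DESeq2 Wald test with the adjusted p over all tested genes and a false discovery rate of 5%. A gene counts as tested where the table gives an adjusted p. Of 38 tested members in the brain-named table, 1 rose, where 0.335% of all tested genes rose and 0.0795% fell. Of 37 in the heart table, 1 rose (0.418% of all tested genes rose and 0.771% fell), and of 36 in the kidney table, 1 rose (1.21% and 0.866%). In the liver-named and spleen tables DESeq2 called 0 of 38 each, where 0.117% and 0.121% of all tested genes rose and 0.0855% and 0.0953% fell. Among the members, 1 in each of these had an unadjusted p under 0.05 and a positive fold change. All tested genes gave 4.48% positive and 5.88% negative at that level in the liver-named table, and 2.62% and 3.35% in spleen.

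**Figure D1:**
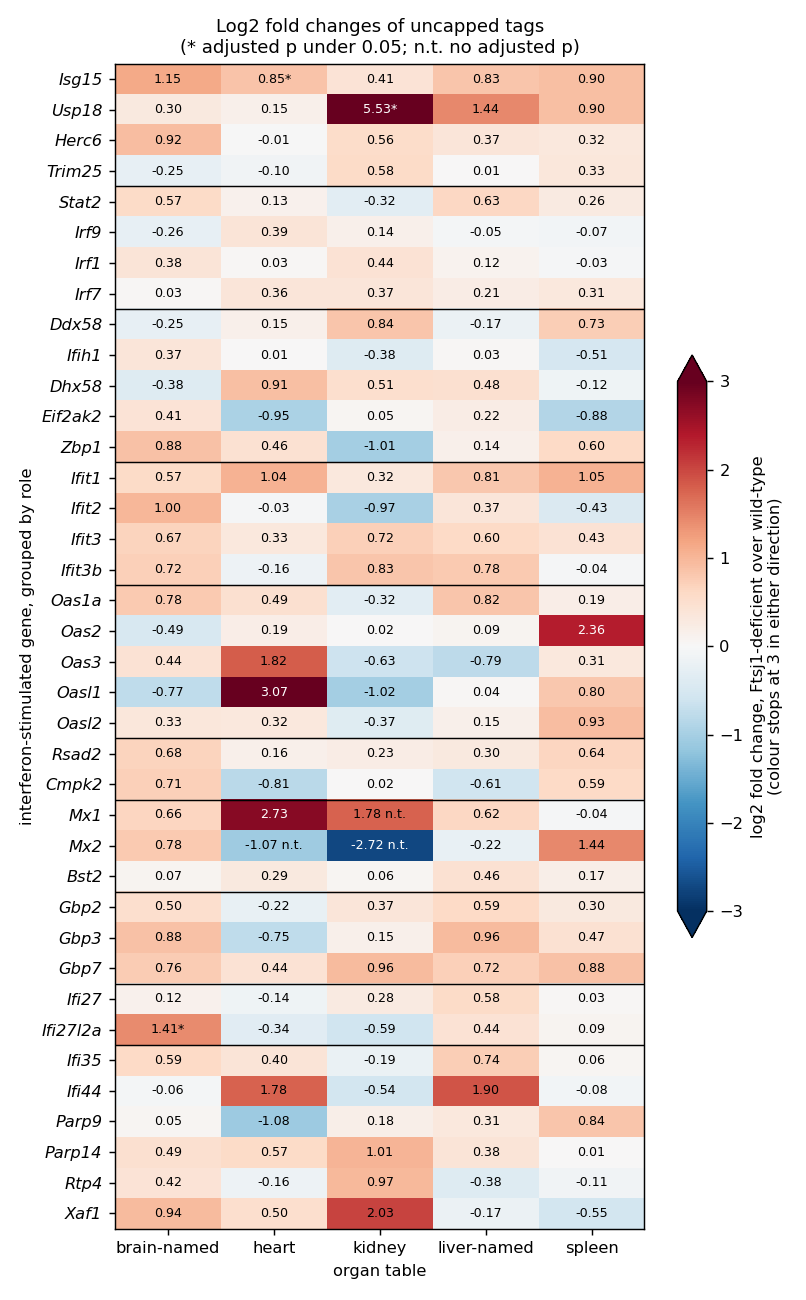
Log2 fold changes (Ftsj1_DF over WT) from the authors' deposited tables for the 38 members with counts, in rows grouped by role, and the 5 organ tables in columns. An asterisk marks the 3 values with an adjusted p under 0.05, Usp18 in kidney at 5.53, Ifi27l2a in the brain-named table at 1.41 and Isg15 in heart at 0.85, and n.t. marks values without an adjusted p.

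Usp18 encodes the protease that takes ISG15 off its targets. In the kidney table its tags stood at an implied 357 normalized counts in Ftsj1_DF mice, against 7.71 in WT mice, at a mean of 182 over the 6 libraries in the authors' deposited table. Implied means follow from the deposited mean and fold change if group sizes are equal and the fit holds genotype alone, so they are approximate. How many kidney libraries carried these tags cannot be read from the tables, which hold no value per library. The log2 fold change in the authors' deposited table was 5.53 ± 0.78 (SE, 95% interval 4.01 to 7.05, DESeq2 adjusted p = 3.15e-09). By adjusted p it was the 6th of 237 rises in kidney, and by size the 37th. Of all 19630 genes tested there, 103 (0.525%) had a log2 fold change at least as large.

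Usp18 did not pass in the other tables. It stood at 0.30 ± 0.39 (brain-named), 0.15 ± 1.17 (heart), 1.44 ± 0.80 (liver-named) and 0.90 ± 1.11 (spleen) in the authors' deposited tables. The heart and spleen intervals, -2.14 to 2.45 and -1.28 to 3.08, are wide, and they exclude neither a rise nor a fall of several fold. A z test of the difference, computed for every gene tested in both tables and adjusted over them, set the kidney value apart from the brain-named one by -5.23 (brain-named minus kidney, adjusted p = 9.40e-06). The difference from heart was -5.38 (heart minus kidney, adjusted p = 0.0284) and that from the liver-named table was 4.09 (kidney minus liver-named, adjusted p = 0.0373). With z rescaled by its robust spread over all genes, these last differences did not pass (adjusted p = 0.0971 for heart and 0.271 for the liver-named table), while the one from the brain-named table did (adjusted p = 0.00159). Against spleen it was 4.63 (kidney minus spleen) and did not pass (adjusted p = 0.0970). These organs other than spleen share mice, so the estimates are not fully independent. In these pairs 1.3%, 0.638%, 0.791% and 0.411% of all genes passed. In the other 6 pairs no member passed the z test, with between 0 and 3 members at an unadjusted p under 0.05. The share of all genes that passed was 0.452% for the brain-named table minus heart, 0.0534% for it minus spleen and 0 for it minus the liver-named table. It was 0.165% for heart minus the liver-named table, 0.117% for heart minus spleen and 0.0799% for the liver-named table minus spleen.

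Tags of the genes next to Usp18 did not pass in kidney. Tuba8 and Pex26, on one side, were at 0.56 ± 0.77 and 0.13 ± 0.60 in the authors' deposited table, and Slc6a13, on the other, at 0.16 ± 0.25. Farther on that side, Slc6a12 was at -1.44 ± 0.92 in the authors' deposited table (DESeq2 adjusted p = 0.584). Beyond it, Iqsec3 was at 1.80 ± 0.62 in the authors' deposited table (DESeq2 adjusted p = 0.111).

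Isg15 encodes the ubiquitin-like protein that the system attaches to other proteins. In the heart table its tags stood at an implied 6388 normalized counts in Ftsj1_DF mice, against 3552 in WT mice, which is 1.80-fold. The log2 fold change in the authors' deposited table was 0.85 ± 0.20 (95% interval 0.45 to 1.24, DESeq2 adjusted p = 0.00627). With the Wald statistic rescaled by its robust spread over all genes the adjusted p was 0.0733. It was among the smallest rises of that table, 80th of 83 by size, and 9.9% of all tested genes had a fold change at least as large. In the other tables the point estimates were positive without passing. They were 1.15 ± 0.45 (brain-named, DESeq2 adjusted p = 0.255), 0.41 ± 0.45 (kidney), 0.83 ± 0.57 (liver-named) and 0.90 ± 0.79 (spleen) in the authors' deposited tables. The difference between heart and any other table did not pass, with heart minus kidney at 0.44 (z test adjusted p = 0.896). A difference in the response of Isg15 between organs was thus not detectable at this precision. Its neighbours Agrn and Perm1 were at -0.29 ± 0.35 and -0.48 ± 0.58 in the authors' deposited heart table. AW011738, the next gene beyond Perm1, was at 1.40 ± 0.84 there (DESeq2 adjusted p = 0.594). A farther gene on the side of Agrn, 9430015G10Rik, was at -0.87 ± 0.62, and none of these neighbours passed.

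Herc6, the main ligase for ISG15 in mice, and Trim25, a ubiquitin ligase of the RIG-I pathway, complete this group. Herc6 had an implied 674 normalized counts in Ftsj1_DF mice and 357 in WT mice in the brain-named table. Its log2 fold change there was 0.92 ± 0.37 in the authors' deposited table and did not pass (DESeq2 adjusted p = 0.279). In the other 4 organs it lay between -0.01 and 0.56 in the authors' deposited tables. Trim25 ranged from -0.25 to 0.58 over the authors' deposited tables.

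Ifi27l2a belongs to a family of small hydrophobic proteins of mitochondria and the nuclear envelope. In the brain-named table its tags stood at an implied 2642 normalized counts in Ftsj1_DF mice, against 996 in WT mice. The log2 fold change in the authors' deposited table was 1.41 ± 0.33 (95% interval 0.76 to 2.06, DESeq2 adjusted p = 0.0162). It was 58th of 59 rises by size. In heart and kidney, where its level was higher, the authors' deposited tables give -0.34 ± 0.36 and -0.59 ± 0.37. In spleen, where its level was highest, it was at 0.09 ± 0.46 in the authors' deposited table. In the liver-named one, where its level was lowest, it was at 0.44 ± 0.58. The brain-named value exceeded the kidney value by 2.00 (z test adjusted p = 0.0108), which did not pass with z rescaled (adjusted p = 0.175). Its difference from heart, 1.74, did not pass either (adjusted p = 0.0676). With the Wald statistic rescaled by its robust spread, the brain-named rise itself had an adjusted p of 0.186. The paralogue Ifi27 lies beside it in the genome, and the authors' deposited brain-named table puts it at 0.12 ± 0.35. The next gene, Ifi27l2b, was at 0.73 ± 0.45 in the authors' deposited brain-named table (DESeq2 adjusted p = 0.606).

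**Figure D2:**
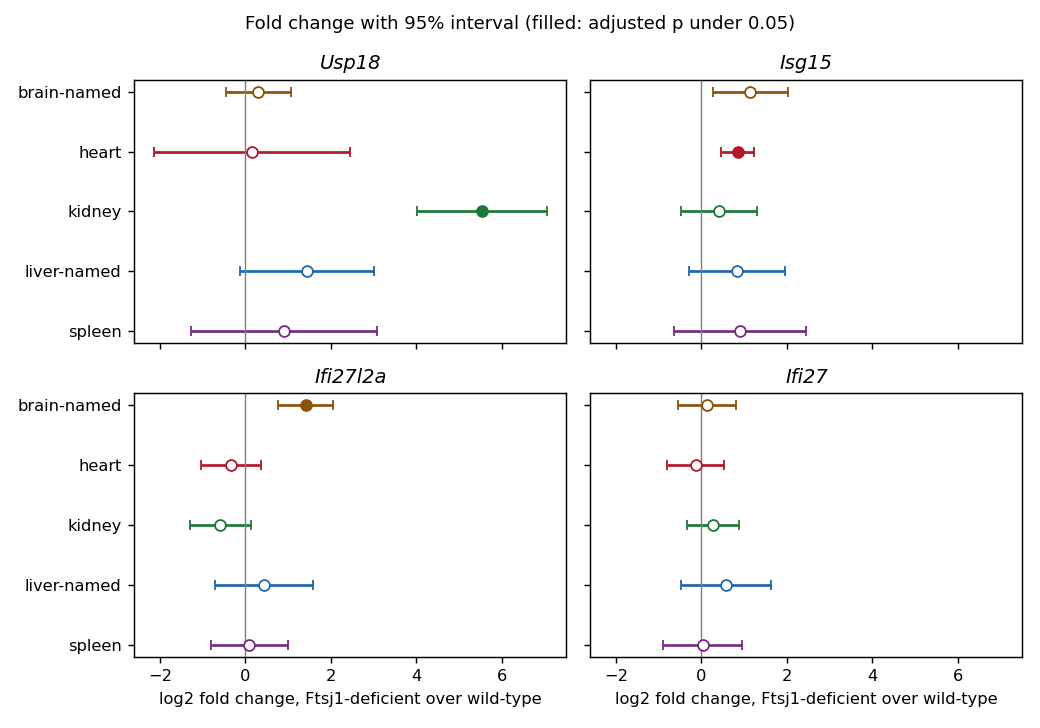
Log2 fold change (Ftsj1_DF over WT) with its 95% interval in each of the 5 organ tables for Usp18, Isg15, Ifi27l2a and its neighbour Ifi27, where filled points passed at an adjusted p under 0.05. The kidney interval of Usp18, 4.01 to 7.05, lies above the upper ends in the other 4 tables, and every Ifi27 interval spans 0.

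Markers of other cells moved in the brain-named table beside Ifi27l2a. Of 20 macrophage markers tested there, 17 were positive (85.0%, against 53.3% of all tested genes) with a median log2 fold change of 0.44. Of the 20, 2 rose, where 0.335% of all tested genes rose. Some other lists leaned positive in that table without a call. Of 15 hepatocyte markers 14 were positive (median 0.41), of 9 proximal tubule markers 9 (median 0.47) and of 8 cardiomyocyte markers 7 (median 0.43). Of 10 neuron markers 7 were positive, and of 10 T and NK cell markers 6. Others did not lean so, with 2 of 5 plasmacytoid dendritic cell markers positive and 3 of 7 neutrophil markers. For B and plasma cells it was 5 of 12, and for endothelial cells 4 of 10. In the authors' deposited table Marco, a scavenger receptor, stood at 2.47 ± 0.66 and Aif1, a calcium-binding protein of macrophages, at 1.81 ± 0.48. All 11 tested acinar markers were positive in that table, with a median of 4.19, and 2 of them rose (against 0.335% of all tested genes). The summed means of macrophage markers were 872 ppm of the table's sum there (parts per 1000000) and those of plasmacytoid dendritic cell markers 21.6 ppm, both over all 6 libraries. The implied sums of the macrophage markers were 71130 normalized counts in Ftsj1_DF mice and 56882 in WT mice, and those of the acinar markers 486085 in Ftsj1_DF mice and 34468 in WT mice. Their range over libraries cannot be given. In bulk tissue, a change in the number of cells of a type and a change in tags per cell cannot be told apart. In heart, beside Isg15, 2 of 10 tested markers of T and NK cells fell, while 5 of the 10 were positive, with a median of -0.32 and values from -6.23 to 1.39. Of 10 tested markers of B and plasma cells there, 1 fell and 3 were positive, with a median of -1.49. Of all genes tested in heart, 0.771% fell and 51.1% were positive. The genes that fell were Cd5, Ctsw and Ighm, at -4.53 ± 0.89, -6.23 ± 1.59 and -2.28 ± 0.66 in the authors' deposited table. DESeq2 called 0 of 20 macrophage markers in heart, where 11 were positive, with a median of 0.30. At an unadjusted p under 0.05, 5 of them were positive and 2 negative (4.76% and 5.87% of all genes tested there). Positive values were seen for 9 of 10 endothelial, 6 of 9 cardiomyocyte, 3 of 7 neutrophil and 2 of 5 plasmacytoid dendritic cell markers. For neurons and proximal tubule it was 2 of 11 and 2 of 9, and for hepatocytes and acinar cells 0 of 14 and 0 of 13. In kidney, beside Usp18, DESeq2 called 0 of 20 macrophage markers, and their median was -0.31. Of them 1 was positive at an unadjusted p under 0.05, against 6.24% of all genes tested there. The part of these cell types in the 3 rises was not tested.

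With the called genes included, the tested members lay mostly above 0, and most did not pass. A positive log2 fold change was seen for 31 of 38 in the brain-named table (81.6%, against 53.3% of all tested genes), with a median of 0.49 against 0.04 over all. The liver-named table likewise had 31 of 38 (81.6% against 47.1%), with a median of 0.37 against -0.05. Heart had 25 of 37 (67.6% against 51.1%), kidney 25 of 36 (69.4% against 49.1%) and spleen 27 of 38 (71.1% against 49.5%). The medians there were 0.19, 0.20 and 0.30, against 0.01, -0.01 and -0.01 over all tested genes. Genes of a list that vary together between mice are not independent, and the mice behind a median are 6 or 8, so these values are a description and carry no test. The list was also chosen with earlier results of these data known, and it differs from all genes in level and cell type. At an unadjusted p under 0.05, 5 members were positive and 1 negative in the brain-named table (8.03% and 2.82% of all tested genes), 6 and 1 in heart (4.76% and 5.87%), and 3 and 0 in kidney (6.24% and 5.67%). The precision differed too, with a median standard error of 0.392 in the brain-named table and 0.619 in spleen.

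**Figure D3:**
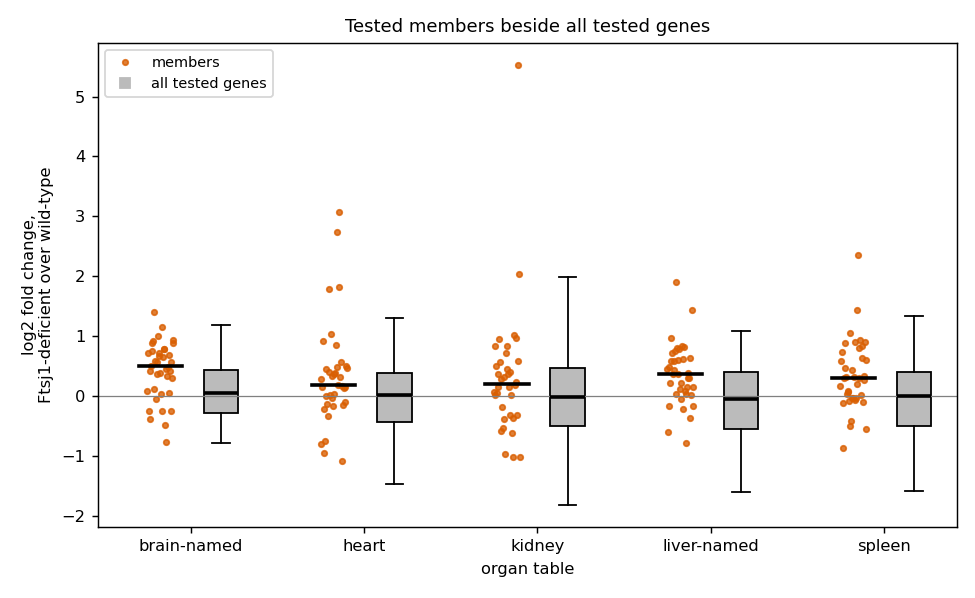
Log2 fold change (Ftsj1_DF over WT) of each tested member (points, with the median as a bar) beside all tested genes (box, quartiles with the median, whiskers at the 5th and 95th percentile) in each organ table. Member medians of 0.49 in the brain-named and 0.37 in the liver-named table stand above the medians of all tested genes, 0.04 and -0.05.

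None of the 4 transcription factors passed in any table. Stat2, a subunit of the interferon-activated complex, was at 0.63 ± 0.35 in the authors' deposited liver-named table (implied 5765 normalized counts in Ftsj1_DF mice and 3722 in WT mice), with a 95% interval from -0.06 to 1.33, and did not pass (DESeq2 adjusted p = 0.540). In the authors' deposited brain-named table it was at 0.57 ± 0.34 (95% interval -0.10 to 1.24). Both intervals include a doubling. Over all 5 of the authors' deposited tables, Irf7, the factor that amplifies interferon production, ranged from 0.03 to 0.37, Irf1 from -0.03 to 0.44 and Irf9, the DNA-binding subunit, from -0.26 to 0.39. No value of these 4 genes had an unadjusted p under 0.05. The 95% interval lay within 1 of 0 on the log2 scale for 2 of the 4 genes in each of the brain-named, heart and liver-named tables. This held for 1 in spleen and 0 in kidney. Examples are Irf7 in the brain-named table (-0.73 to 0.79) and Stat2 in heart (-0.29 to 0.56), which exclude a doubling.

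Among the sensors, Zbp1, which detects Z-form nucleic acid, was at 0.88 ± 0.38 in the authors' deposited brain-named table (DESeq2 adjusted p = 0.322) and -1.01 ± 1.00 in the authors' deposited kidney table. Ddx58, which encodes the RNA sensor RIG-I, was at 0.84 ± 0.45 in the authors' deposited kidney table. In the authors' deposited spleen table it was at 0.73 ± 0.45 (DESeq2 adjusted p = 0.955). Dhx58, a relative of RIG-I, ranged from -0.38 to 0.91 over the authors' deposited tables. The other sensors, Ifih1 (MDA5) and Eif2ak2 (PKR), lay between -0.95 and 0.41 in the authors' deposited tables. None of the 5 sensors passed in any table.

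The IFIT proteins are antiviral, and IFIT1 binds RNA ends that lack the methylation of host caps. All 4 genes had positive fold changes in the authors' deposited brain-named table, from 0.57 to 1.00, and in the liver-named one, from 0.37 to 0.81, and none passed. Ifit3 had an implied 2328 normalized counts in Ftsj1_DF mice and 1413 in WT mice in kidney, where the authors' deposited table gives 0.72 ± 0.52. Its copy Ifit3b was at 0.83 ± 0.51 there in the authors' deposited table. Ifit1 was at 1.04 ± 0.51 in the authors' deposited heart table, an unadjusted p of 0.0435 that did not pass. Ifit2 was negative in the authors' deposited kidney table, at -0.97 ± 0.84, with an interval from -2.61 to 0.67.

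The OAS enzymes make 2′-5′-linked oligoadenylate, which activates RNase L, and their largest fold changes stood on few tags. Oasl1, an OAS relative that restrains translation of Irf7 mRNA in mice, was at 3.07 ± 1.30 in the authors' deposited heart table (DESeq2 adjusted p = 0.310). This rests on an implied 80.0 normalized counts in Ftsj1_DF mice and 9.54 in WT mice. In the brain-named table, where Oasl1 had a mean of 502, the authors' deposited table gives -0.77 ± 0.34 (DESeq2 adjusted p = 0.362). Oas2 was at 2.36 ± 1.13 in the authors' deposited spleen table, the smallest adjusted p of the list there (DESeq2, 0.758), on an implied 168 normalized counts in Ftsj1_DF mice and 32.8 in WT mice. Oas1a, the family member with the highest mean, was at 0.78 ± 0.35 in the authors' deposited brain-named table (DESeq2 adjusted p = 0.367) and -0.32 ± 0.34 in the authors' deposited kidney table. Oas3 was at 1.82 ± 0.81 in the authors' deposited heart table, and Oasl2 ranged from -0.37 to 0.93 over all 5.

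Rsad2 (viperin, a radical SAM enzyme that makes an antiviral nucleotide) and Cmpk2 (a mitochondrial nucleotide kinase) are neighbours on chromosome 12. In the authors' deposited brain-named table they were at 0.68 ± 0.36 and 0.71 ± 0.48. In heart they differed in sign, at 0.16 ± 0.40 and -0.81 ± 0.81 in the authors' deposited table, within their errors. Bst2 (tetherin, which holds budding virus at the membrane) lay between 0.06 and 0.46 in all 5 of the authors' deposited tables. Mx1, an antiviral GTPase, had a mean of 796 and a fold change of -0.04 ± 0.71 in the authors' deposited spleen table. It had no p-value in kidney (mean 44.3 in the authors' deposited table) and was at 2.73 ± 1.34 in the authors' deposited heart table, on an implied 28.1 normalized counts in Ftsj1_DF mice and 4.22 in WT mice. Mx2 had no adjusted p in heart or kidney, with means of 6.35 and 8.23 in the authors' deposited tables, and was at 1.44 ± 0.88 in the authors' deposited spleen table (DESeq2 adjusted p = 0.955).

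The guanylate-binding proteins, GTPases that attack vacuoles of intracellular pathogens, had positive fold changes for all 3 genes in every table but heart. Gbp7 was at 0.96 ± 0.57 in the authors' deposited kidney table and 0.88 ± 0.62 in the authors' deposited spleen table. Gbp3 was at 0.96 ± 0.59 in the authors' deposited liver-named table and -0.75 ± 0.62 in the authors' deposited heart table, and Gbp2 lay between -0.22 and 0.59 over all 5 of the authors' deposited tables. None of these passed.

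Of the remaining genes, Parp14, a mono-ADP-ribosyltransferase, had an implied 2920 normalized counts in Ftsj1_DF mice and 1449 in WT mice in kidney. The authors' deposited kidney table gives 1.01 ± 0.39, which did not pass (DESeq2 adjusted p = 0.190). Parp9, another member of the PARP family, was at -1.08 ± 0.41 in the authors' deposited heart table (DESeq2 adjusted p = 0.206), the lowest fold change of the list there. Xaf1, a pro-apoptotic gene, was at 2.03 ± 1.01 in the authors' deposited kidney table (DESeq2 adjusted p = 0.396), on an implied 49.3 normalized counts in Ftsj1_DF mice and 12.1 in WT mice. Ifi44, a cytoplasmic protein, was at 1.90 ± 0.89 in the authors' deposited liver-named table (DESeq2 adjusted p = 0.426), on an implied 51.1 normalized counts in Ftsj1_DF mice and 13.7 in WT mice. Ifi35, which partners with NMI, ranged from -0.19 to 0.74 and Rtp4 from -0.38 to 0.97 over the authors' deposited tables. Ifitm3 and Cxcl10 are listed at 0 in all 5 of the authors' deposited tables. B2m, which nearly every cell uses, is also listed at 0 there, so a listed 0 does not show that a transcript was missing. The relatives Ifitm1 and Ifitm2 had means of 2438 and 1738 in the authors' deposited brain-named table.

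Upstream of these genes, 1 receptor gene passed in kidney. Ifnar2, the receptor chain to which USP18 binds, fell, with an implied 53.7 normalized counts in Ftsj1_DF mice and 337 in WT mice. The authors' deposited kidney table gives -2.65 ± 0.61 (DESeq2 adjusted p = 0.00249), and its partner Ifnar1 was at -0.05 ± 0.68 there in the authors' deposited table. In the authors' deposited spleen table Ifnar2 was at 1.44 ± 0.60 (DESeq2 adjusted p = 0.607). It was at -1.26 ± 0.71 in the liver-named (DESeq2 adjusted p = 0.544), -0.25 ± 0.79 in the heart and 0.05 ± 0.53 in the brain-named table. Of 27 ligand and receptor genes, Ifnar2 was the 1 called of 7 tested in kidney, where 0.866% of all tested genes fell. Of these 7, 1 was positive at an unadjusted p under 0.05 without passing, against 6.24% of all tested genes. Their fold changes ran up to 7.02 in the authors' deposited table. DESeq2 called 0 of the listed genes tested in each of the other tables, with between 0 and 1 at an unadjusted p under 0.05. Il10rb, a chain shared with IL-10 family receptors, had the highest mean of that list, 20489 in the authors' deposited heart table.

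Of 15 signal transducers (such as JAK kinases, interferon regulatory factors and inhibitors), DESeq2 called 0 in all 5 tables, with between 1 and 3 per table at an unadjusted p under 0.05. Over the tables, all tested genes gave between 2.62% and 8.03% positive and between 2.82% and 5.88% negative at that level. Irf8, a factor of myeloid cells, was at 0.84 ± 0.28 in the authors' deposited kidney table (DESeq2 adjusted p = 0.0983), and Jak1 lay between -0.12 and 0.24 over all 5 of the authors' deposited tables.

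Among 21 genes of nucleic acid sensing upstream of interferon, 19 were tested in each table, and 1 rose in kidney and 1 in heart. Of all tested genes, 1.21% rose in kidney and 0.418% in heart. Sting1, the adaptor of cytosolic DNA sensing, had an implied 353 normalized counts in Ftsj1_DF mice and 27.1 in WT mice in kidney, and the authors' deposited table gives 3.70 ± 0.91 (DESeq2 adjusted p = 0.00592). In the other 4 of the authors' deposited tables it lay between -0.68 and 0.74. Rnaseh2a, the catalytic subunit of RNase H2, was at 1.48 ± 0.42 in the authors' deposited heart table (DESeq2 adjusted p = 0.0420).

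A wider set of 101 interferon-induced genes outside the list was described in the same way. In it 1 of 80 tested genes rose in the brain-named table, 1 of 85 in heart and 1 of 85 in kidney (1.25%, 1.18% and 1.18%, against 0.335%, 0.418% and 1.21% of all tested genes). Gbp5, a guanylate-binding protein of inflammasome signalling, had an implied 769 normalized counts in Ftsj1_DF mice and 105 in WT mice in kidney. The authors' deposited kidney table gives 2.88 ± 0.60 (DESeq2 adjusted p = 4.75e-04). Slfn1, a Schlafen gene, was at 1.80 ± 0.47 in the authors' deposited brain-named table (DESeq2 adjusted p = 0.0425). Trafd1, a feedback regulator of innate signalling, was at 0.79 ± 0.23 in the authors' deposited heart table (DESeq2 adjusted p = 0.0486). The wider set had a median of 0.28 in the brain-named table, 0.13 in spleen, 0.07 in heart, 0.05 in kidney and -0.01 in the liver-named table. Of its 78 genes tested in the liver-named table, 37 were positive (47.4%). Ly6e, an entry restriction factor with the highest mean tag count of the set, was at -0.88 ± 0.31 in the authors' deposited kidney table (DESeq2 adjusted p = 0.133).

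**Figure D4:**
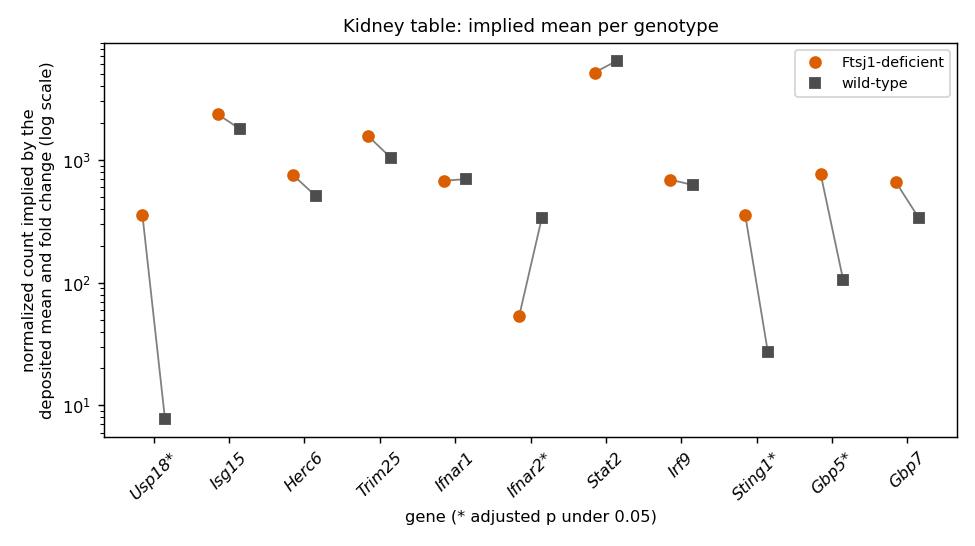
Implied mean normalized count (log scale) in Ftsj1_DF mice (circles) and WT mice (squares) in the kidney table for the ISG15 system, the receptor chains, Stat2 and Irf9, Sting1 and 2 guanylate-binding proteins. Usp18 (357 and 7.71), Sting1 (353 and 27.1) and Gbp5 (769 and 105) were higher and Ifnar2 (53.7 and 337) lower in Ftsj1_DF mice, and these 4 passed the test.

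Levels across organs were set side by side as mean normalized counts in ppm of each table's sum. The tables were normalized separately and the tags were not corrected for length, so they describe a gene across tables only. Uncapped tags of the 38 genes with counts summed to 4700.5 ppm in spleen, 1852 in kidney, 1652 in the brain-named table, 1494 in heart and 633 in the liver-named table. Spleen held the highest level for 19 genes, kidney for 11 and the brain-named table for 8, and none was highest in heart or in the liver-named table. The lowest level was in the liver-named table for 20 genes and in heart for 14. Isg15 stood at 626 ppm in spleen, 98.5 in heart, 42.6 in kidney, 39.7 in the brain-named and 11.7 in the liver-named table. The order of its middle values, kidney and brain-named, is set by a small difference with no error of its own.

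The summed levels of the role groups ran in several orders, given without an error. For the ISG15 system, the OAS proteins and the remaining genes the order from high to low was spleen, heart, kidney, brain-named and liver-named. In spleen and heart most of these sums came from Isg15, Oas1a and Ifi35 respectively. No other gene with counts in these groups ran in that order, so it does not describe the groups as a whole. For the IFI27 family, the viperin locus and the guanylate-binding proteins the summed order was spleen, kidney, heart, brain-named and liver-named. Within these groups only Ifi27l2a, Rsad2 and Gbp3 kept it. The IFIT proteins summed highest in kidney, and the Mx GTPases with the membrane proteins in the brain-named table. Most of that last sum was Bst2, while Mx1 and Mx2 were highest in spleen. Irf7 and Bst2 were highest in the brain-named table, at 347 and 357 ppm, against 198 and 207 in spleen. Ifit3 was highest in kidney, at 38.5 ppm, and lower in spleen, at 11.7. Rsad2 was highest in spleen at 366 and second in kidney at 175. Ifi27l2a and Ifi27, neighbours and paralogues, differed in their spread. Ifi27 kept between 187 and 356 ppm in all 5 tables, and Ifi27l2a ranged from 10.9 in the liver-named table to 797 in spleen. Usp18, the gene with the largest fold change, was low everywhere, from 1.88 ppm in the liver-named to 6.96 in the brain-named table.

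**Figure D5:**
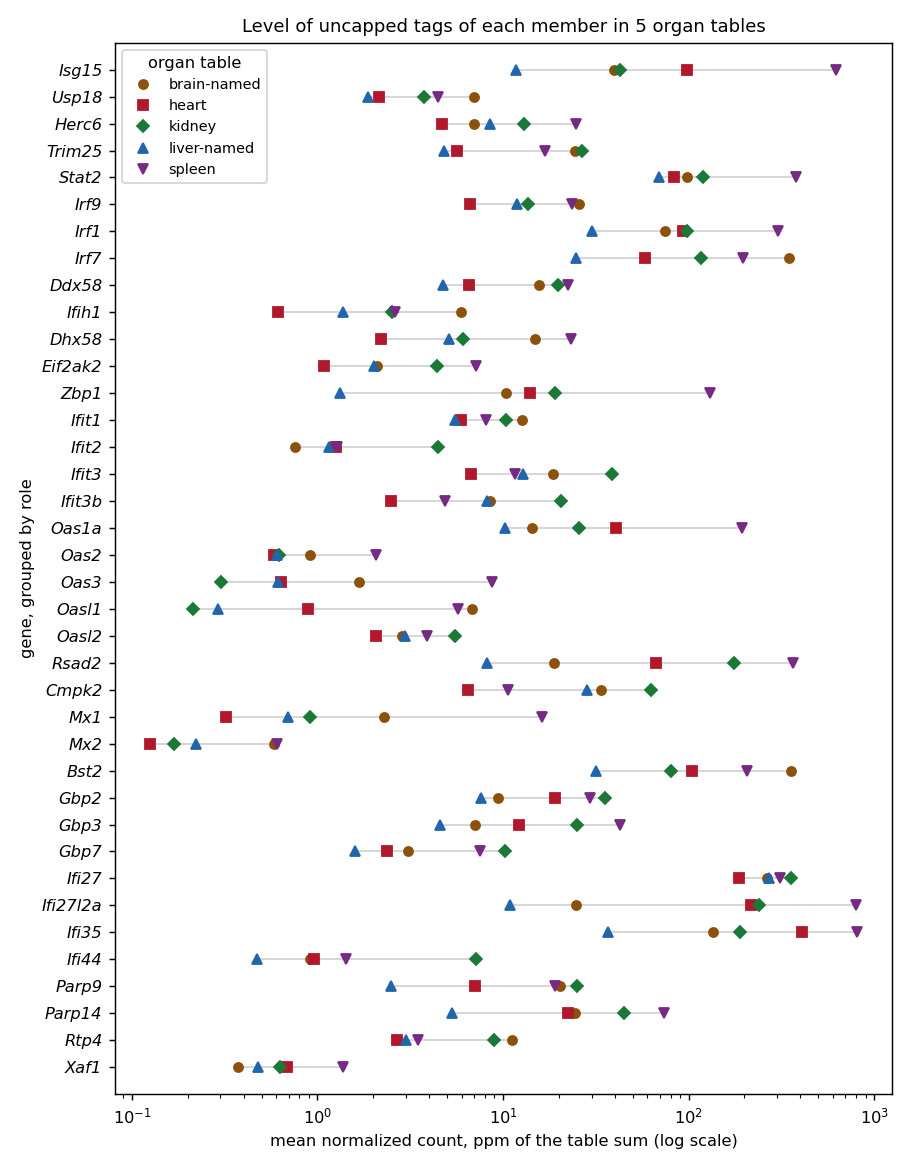
Mean normalized count in ppm of the table's sum (log scale) of the 38 members with counts, with a marker for each organ table. Spleen is the highest table for 19 members, and the liver-named table the lowest for 20.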

How the data were processed

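Uncapped poly(A) RNA from 5 µg of total RNA per library was tagged and sequenced, per the labels' protocols. The authors counted reads with featureCounts of Subread 2.0.3 on GRCm39 and used DESeq2, per the submitters' processing notes, which give neither the DESeq2 version nor its model. The files are 5 deposited tables, 1 per organ, with no value per library, so depth per library is unknown and the precision of a value is its deposited standard error. The deposited mean is a signal, in normalized counts averaged over the libraries of an organ. The deposited fold change and standard error are on the log2 scale. The deposited Wald statistic is a score, and p-values, raw and adjusted, were used as the authors give them. The unnamed row of each file (1 of them per organ) was dropped.

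Genes were matched by symbol. Members and gene lists were chosen with earlier results of these data known. The authors' adjusted p was used at 5%, after a check that it equals a Benjamini-Hochberg adjustment over the tested genes. Intervals are the estimate ± the 95% normal quantile times the standard error. The difference of a fold change between 2 tables was tested by z, 2-sided, for all genes tested in both and adjusted within each of 10 pairs. The script was tested on simulated data. The genes given in full were those called in at least 1 table, the 3 smallest adjusted p per table, and those without an adjusted p. Others were given by range with up to 3 examples per group. Of the pathway lists, called genes and up to 3 of the highest means were named. Neighbours, marker calls, Ifnar1, B2m, Ifitm1, Ifitm2, Ifi27l2b and further members were added after their values were seen. Nothing says that libraries of brothers are independent, and each set of brothers held both genotypes. Whether the authors' model took the sets into account is not given. If it did not, the standard errors and p-values may be misstated. Promoters came from RefSeq (GRCm38.p6), matched by symbol. Software was matplotlib 3.10.9, scipy 1.17.1, pandas 2.3.3 and numpy 2.4.6 on Python 3.11.15. Alternatives were other thresholds, a minimum mean, adjustment over all p-values, a rescaled statistic and other scalings of levels.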

Additional observations from a re-analysis of the deposited data

Results flagged for a closer look

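A total of 4 differences between organ tables passed the z test of the difference itself. The fold change of Usp18 differed between the brain-named and kidney tables by -5.23 on the log2 scale, between heart and kidney by -5.38, and between kidney and the liver-named table by 4.09. That of Ifi27l2a differed between the brain-named and kidney tables by 2.00. With z rescaled by its robust spread, the Usp18 difference between the brain-named and kidney tables was the 1 that passed. Over the 10 pairs of tables, these were the members called, and a spread between single libraries could not be examined.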

How the results depend on the processing

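Usp18 in kidney passed in every alternative tried. The brain-named count of called members, 1, became 0 at a false discovery rate of 1% and 0 with the Wald statistic rescaled by its robust spread (Ifi27l2a adjusted p = 0.186). The heart count, 1, became 0 when a log2 change of at least 1 was also asked and 0 with the rescaled statistic (Isg15 adjusted p = 0.0733). The 4 differences between tables became 1 with z rescaled, and Usp18 between the brain-named and kidney tables was the one kept. Members highest in the brain-named table numbered 13 with no scaling of the means, against 8, and members highest in kidney 6 without the 20 highest genes of each table, against 11. For single genes and differences, 19 checks kept the call and 7 lost it. Over all genes, the rescaled statistic called 8 in place of 73 in the brain-named table, 53 for 236 in heart, 169 for 407 in kidney and 2 for 45 in the liver-named table, while spleen gave 73 for 50. The other 55 checks of counts and medians stayed within a set margin, and no value turned its direction. For a count the margin was 1.5 times, and for a median it was the median standard error of the members. That margin exceeds the median itself in every table but the brain-named one, so a median could hardly fail. In heart it was 0.554, where the median was 0.19 and the alternatives gave between 0.18 and 0.26. The cause of the shifts was not tested. No paired analysis was possible because the files hold no values per library, so sets of brothers could not be a block, and leaving out single libraries was not run either.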
